A study of Rattus norvegicus with 14 samples.

Results

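Hspa5, Hsp90b1, Pdia4, Dnajb9 and Hyou1 encode chaperones and folding enzymes of the lumen of the endoplasmic reticulum. They were selected on their higher signals in fed than in control Wistar livers, and found by symbol in the annotation of the array. The 5 genes are carried by 10 probe sets among 4478 that are not controls, and they are 5 of 2670 genes with a symbol of their own. The series measured 14 liver RNA samples, all from the left lateral lobe, with 1 array each. All rats came from one supplier, and the fed rats ate chow with 1% orotic acid, a precursor of pyrimidines that causes a reversible fatty liver. The groups were Kyoto rats fed for 1, 3 or 14 days (2 arrays each), Wistar rats fed for 3 days (2 arrays) or 14 days (3 arrays), and Wistar controls (3 arrays) on chow without orotic acid. The labels give no age or sex and do not say whether each array is a separate animal. Unfed Kyoto rats were not analysed here, so the Kyoto values have no unfed level of their own strain.

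The lumen of the endoplasmic reticulum is where hepatocytes fold the plasma proteins and apolipoproteins that they secrete. When unfolded protein builds up there, sensors in its membrane start the unfolded protein response. Its transcription factors, among them the cleaved form of ATF6 and spliced XBP1, bind elements upstream of chaperone genes and raise their transcription. Hspa5 encodes BiP, the Hsp70 of the lumen and its most studied response gene. Hsp90b1 encodes the Hsp90 of the lumen. Pdia4 is a disulfide isomerase, Dnajb9 a J-domain co-chaperone of BiP that takes part in disposing of misfolded protein, and Hyou1 a large Hsp70-like protein that helps BiP exchange nucleotide.

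The 5 upstream regions are shown because all 5 genes had lower means in Wistar controls than in fed Wistar livers. RefSeq (build GRCr8) lists a region for each of the 5 genes. The 250 bases before the annotated start follow, 5′ to 3′ on the gene's strand. Capitals mark every CCAAT box and every CCACG box, read on either strand, where they appear as ATTGG and CGTGG.
Hspa5, chr3:38452766-38453015, plus strand: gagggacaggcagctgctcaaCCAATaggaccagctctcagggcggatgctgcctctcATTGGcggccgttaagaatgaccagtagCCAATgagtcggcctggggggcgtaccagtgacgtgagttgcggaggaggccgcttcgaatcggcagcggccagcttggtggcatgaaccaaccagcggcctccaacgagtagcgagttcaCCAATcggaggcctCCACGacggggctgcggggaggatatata
Hsp90b1, chr7:23012294-23012543, minus strand: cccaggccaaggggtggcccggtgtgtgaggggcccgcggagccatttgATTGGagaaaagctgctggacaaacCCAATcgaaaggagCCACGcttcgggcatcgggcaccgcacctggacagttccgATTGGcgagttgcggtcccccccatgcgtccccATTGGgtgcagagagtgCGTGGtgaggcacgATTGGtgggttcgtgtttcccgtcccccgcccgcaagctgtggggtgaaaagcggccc
Pdia4, chr4:78153192-78153441, minus strand: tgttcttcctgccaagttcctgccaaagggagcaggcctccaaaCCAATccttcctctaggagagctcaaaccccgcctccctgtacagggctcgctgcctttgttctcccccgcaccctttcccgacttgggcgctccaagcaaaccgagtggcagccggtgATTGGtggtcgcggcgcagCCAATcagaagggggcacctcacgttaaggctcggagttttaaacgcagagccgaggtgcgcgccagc
Dnajb9, chr6:67002052-67002301, minus strand: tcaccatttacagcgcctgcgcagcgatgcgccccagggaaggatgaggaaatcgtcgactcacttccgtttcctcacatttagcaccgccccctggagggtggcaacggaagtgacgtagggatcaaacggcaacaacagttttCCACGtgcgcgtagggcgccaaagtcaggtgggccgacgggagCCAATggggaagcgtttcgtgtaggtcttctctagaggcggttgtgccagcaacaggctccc
Hyou1, chr8:53602632-53602881, plus strand: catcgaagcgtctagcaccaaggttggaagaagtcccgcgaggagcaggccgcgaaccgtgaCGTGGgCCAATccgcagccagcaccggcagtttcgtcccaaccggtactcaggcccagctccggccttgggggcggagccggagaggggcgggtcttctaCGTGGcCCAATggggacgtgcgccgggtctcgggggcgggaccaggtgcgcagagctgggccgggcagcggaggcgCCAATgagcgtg

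The endoplasmic reticulum stress element, a CCAAT box and a CCACG box at a fixed spacing, is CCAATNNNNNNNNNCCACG. Read on both strands, it occurred in 22 of 33469 rat promoter windows of this length, a share of 0.0657%. Hspa5 held 1 match and Hsp90b1 held 2. They are shown with their paired boxes in capitals, in the direction of the element.
Hspa5, 43 bases before the start, same strand: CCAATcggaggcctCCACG
Hsp90b1, 176 bases before the start, same strand: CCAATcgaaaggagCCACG
Hsp90b1, 72 bases before the start, other strand: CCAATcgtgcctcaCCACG
The second kind of element, ATTGGNCCACG, was in 0.0418% of windows. Hyou1 held 2 matches, ATTGGcCCACG at 188 bases and ATTGGgCCACG at 88 bases before the start, both on the other strand. The XBP1 core TGACGTGG, which overlaps the first of these, occurred 1 time in Hyou1 and in 0.52% of all windows. A further Hyou1 start in the same table had no match to any of these 3 motifs. Pdia4 held 3 CCAAT boxes and no CCACG box, and Dnajb9 1 of each. These boxes alone are common, at 34% of windows for CCAAT and 27.2% for CCACG. A match describes the letters only; whether a factor binds there was not tested.

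Facts of the arrays that touch these genes come first. The deposited signals were quantile normalized between arrays, and signals under 115 were set to that floor. Of 10 probe sets of these genes, 1 (Hspa5, S63521_r_at) lay under the floor on all 14 arrays, with signals from 16.9 to 101, and is not used. For each gene the probe set with the highest mean entered the fit, and all 5 passed the filter on low signals. Liver markers fitted the tissue: 7 of 8 listed hepatocyte genes were on the array, none was at the floor throughout, and their summed signal ran from 134112 to 151730. The library labelled Wistar control 2 had a Ces2e signal at the floor, as had all 6 Kyoto arrays, against 1084 to 1737 on the other 7 Wistar arrays. Ces2e encodes a carboxylesterase. On that library the Mst1 signal was 161, while Kyoto arrays lay at 115 to 274 and the other Wistar arrays at 1388 to 2192. That library correlated best with Kyoto day 3 replicate 2 (r = 0.96 across features, which are not independent replicates). Wistar day 14 replicate 3 correlated best with Wistar control 3 (r = 0.97). Wistar day 14 replicate 3, Wistar control 3 and Kyoto day 1 replicate 1 lack values in the same 374 rows of the deposited table. Neither Wistar day 14 replicate 3 nor Wistar control 3 has a stated lot. The library labelled Wistar control 2 and Wistar day 14 replicate 3 stay in their labelled groups, and the Wistar comparisons, the list medians and the likeness of patterns are also given without them.

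Hspa5 was lowest in unfed Wistar livers. Its normalised signal was 5765 and 8787 in Kyoto livers at day 1, 8389 and 7730 at day 3, and 7345 and 8292 at day 14. In Wistar livers it was 4367 and 7209 at day 3 and 6842, 6172 and 1906 at day 14, against 2232, 3164 and 2247 in Wistar controls. Every fed array lay above every control except Wistar day 14 replicate 3, which was the lowest of all 14. By mean log2 signal the groups ran in the order Kyoto day 3, Kyoto day 14, Kyoto day 1, Wistar day 3, Wistar day 14 and Wistar control, and each group's arrays overlapped those of the next. The second Hspa5 probe set, S63521_i_at, had the same 4 arrays lowest. It ran from 1315 to 3359 on the other 10 arrays, at 295 on Wistar day 14 replicate 3, and from 503 to 686 in controls.

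Hsp90b1 had its lowest mean in Wistar controls. Kyoto livers had signals of 5702 and 7760 at day 1, 8847 and 9618 at day 3, and 10753 and 7957 at day 14. Wistar livers had 5765 and 14114 at day 3 and 8462, 2321 and 3371 at day 14, against 2201, 2540.3 and 1527 in Wistar controls. The Kyoto and Wistar day 3 arrays all lay above the controls, while Wistar day 14 overlapped them through replicate 2. The order of group means was Kyoto day 14, Kyoto day 3, Wistar day 3, Kyoto day 1, Wistar day 14 and Wistar control, with an overlap between each neighbouring pair. The probe sets disagreed on which day 14 array was low. On S69316_s_at the Wistar day 14 arrays had 7760, 4367 and 1139, and on AA685903_at 3454, 1592 and 759, so there replicate 2 was above the controls (1639 to 2379 and 737 to 1106) and replicate 3 below or among them.

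Pdia4 separated fed from unfed Wistar livers on every array. Its signal was 2387 and 4752 in Kyoto livers at day 1, 3379 and 2928 at day 3, and 2445 and 2673 at day 14. It was 2788 and 4815 in Wistar livers at day 3 and 4086, 2900 and 1345 at day 14, against 961, 926 and 1151 in Wistar controls. All 11 fed arrays exceeded the 3 controls, and Wistar day 14 replicate 3 was the nearest to them. The order of means was Wistar day 3, Kyoto day 1, Kyoto day 3, Kyoto day 14, Wistar day 14 and Wistar control. Of the neighbouring groups, Kyoto day 3 and Kyoto day 14 did not overlap, nor did Wistar day 14 and Wistar control.

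Dnajb9 had its highest signals in Kyoto livers after 1 day of feeding. Kyoto signals were 387 and 722 at day 1, 296 and 279 at day 3, and 181 and 253 at day 14. Wistar signals were 237 and 364 at day 3 and 315, 375 and 131 at day 14, against 164, 116 and 118 in Wistar controls. Both Kyoto day 1 arrays lay above all other arrays, and the 3 controls with Wistar day 14 replicate 3 were the 4 lowest. The order of means was Kyoto day 1, Wistar day 3, Kyoto day 3, Wistar day 14, Kyoto day 14 and Wistar control. Kyoto day 1 did not overlap Wistar day 3, and Kyoto day 14 did not overlap Wistar control. How many of all features separate between these groups was not counted, so this describes the arrays only. Of the controls, 2 lay within 3 units of the floor, so the distance from controls to fed livers depends on the floor.

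Hyou1 stood highest in fed Wistar livers and not in Kyoto livers. Kyoto signals were 813 and 1276 at day 1, 937 and 1424 at day 3, and 387 and 867 at day 14. Wistar signals were 1655 and 3538 at day 3 and 3366, 2733 and 857 at day 14, against 736, 440.4 and 766 in Wistar controls. The 4 Wistar day 3 and day 14 arrays other than replicate 3 of day 14 lay above all 6 Kyoto arrays. The order of means was Wistar day 3, Wistar day 14, Kyoto day 3, Kyoto day 1, Wistar control and Kyoto day 14. Kyoto day 1 and Wistar control were the neighbours without overlap, and the share of all features that separate between them was not counted. On the second probe set, U41853_at, Kyoto arrays ran from 143 to 364. Wistar arrays had 402 and 914 at day 3 and 846, 269 and 482 at day 14, so there replicate 2 of day 14, and not replicate 3, lay among the Kyoto arrays. Controls had 206 and 240 there and 1 lay under the floor.

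**Figure D1:**
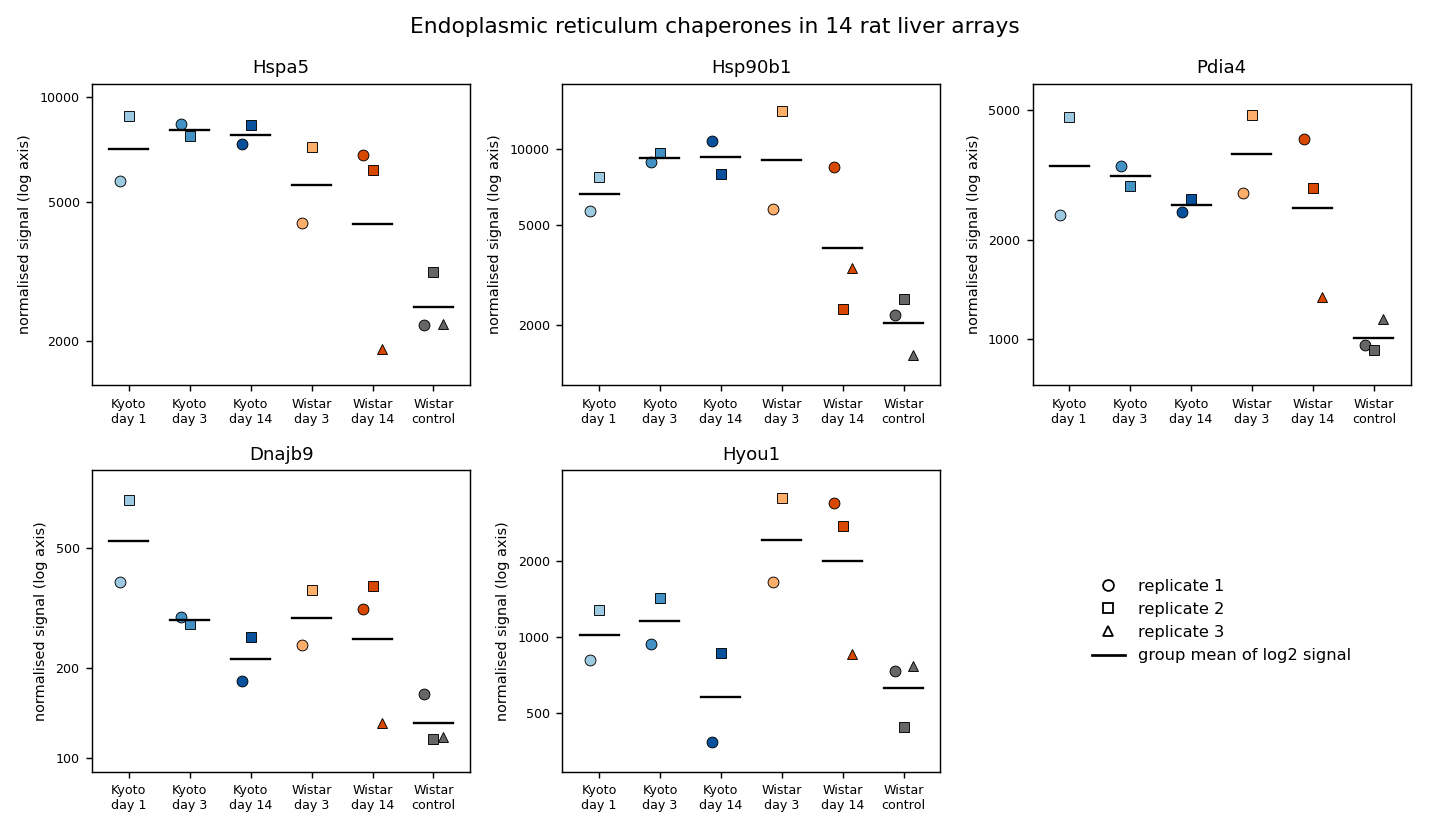
Normalised signal (log axis) of the 5 chaperone genes on each array, by strain and day group; points are arrays, their shape is the replicate number and the line is the group mean of log2 signal. Wistar controls are the lowest group of every panel but Hyou1, where Kyoto day 14 is lowest. The day 14 triangle (Wistar replicate 3) lies near the controls in every panel but Hsp90b1. There it lies above them, at 3371, and replicate 2 lies among them, at 2321.

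Over the 9 probe sets with any signal above the floor, the 3 Wistar controls and Wistar day 14 replicate 3 were the 4 lowest arrays on 6. On the other 3, 3 of these 4 arrays were among the lowest. The exceptions were S69315_at of Hsp90b1 and both Hyou1 probe sets. Of all 3731 probe sets with signal above the floor, 0.804% had these 4 arrays lowest and a further 7% had 3 of them. The genes were selected for low control signals and the 4 arrays were picked after their values were seen, so the counts describe these arrays only. The ratio of the highest to the lowest array ran from 4.61 for M14050_s_at of Hspa5 to 11.4 for S63521_i_at of Hspa5, with signals under the floor set to it. For U41853_at of Hyou1 it was at least 7.93, since 1 control lay under the floor. Of the probe sets in the fit it was 9.24 for Hsp90b1, 9.15 for Hyou1, 6.23 for Dnajb9 and 5.20 for Pdia4.

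**Figure D2:**
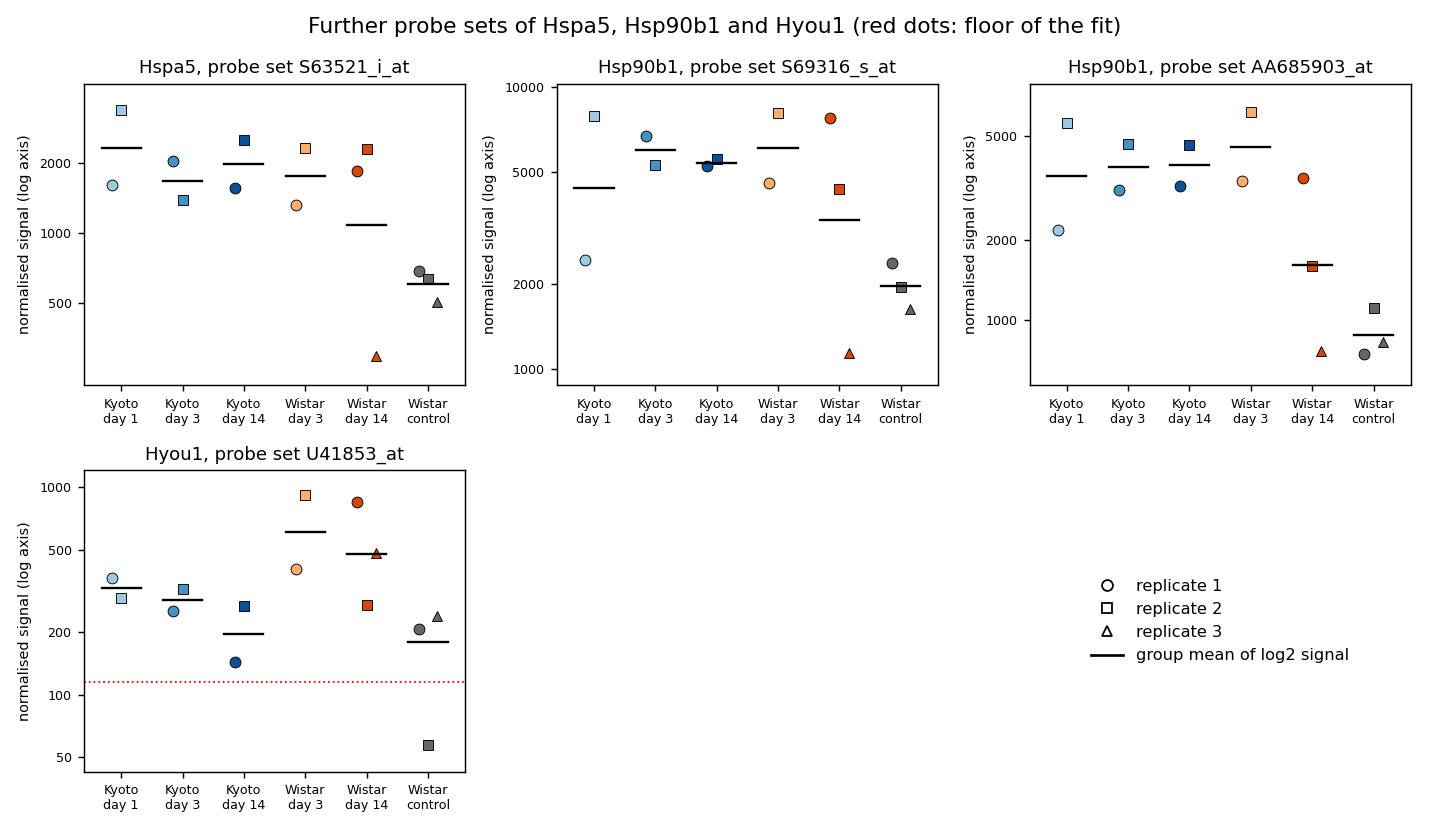
Normalised signal (log axis) on the 4 further probe sets of Hspa5, Hsp90b1 and Hyou1 with signal above the floor; points are arrays, lines are group means of log2 signal with low values set to the floor, and the dotted line is the floor of 115. Wistar controls are the group with the lowest mean on all 4, and Hyou1 again has its highest arrays in fed Wistar livers.

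After 3 days of orotic acid, the mean of each of the 5 genes was higher in Wistar livers than in Wistar controls, from 2.23-fold for Hspa5 to 4.41-fold for Hsp90b1. The genes were chosen with this contrast known, so these values are a description and carry no test. The log2 difference was 1.16 ± 0.44 for Hspa5 and 2.14 ± 0.46 for Hsp90b1 (± is the standard error of the limma fit, 2 against 3 arrays). It was 1.86 ± 0.41 for Pdia4, 1.17 ± 0.42 for Dnajb9 and 1.95 ± 0.55 for Hyou1. On the other probe sets of Hsp90b1 it was 2.38 (AA685903_at) and 1.63 (S69316_s_at). The day 3 arrays did not overlap the controls for 5 of 5 genes, where 14.5% of all 1909 features tested were higher without overlap. Over all features the median difference was -0.04. No feature passed the adjusted threshold of 0.05 (limma, Benjamini-Hochberg), and 10.5% had an unadjusted p below 0.05.

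These day 3 differences were as large without the library labelled Wistar control 2, at 1.08 to 2.30 over the 5 genes. Of the 2 Wistar day 3 arrays, replicate 2 had the higher signal of every gene. Without it the 5 differences ran from 0.80 to 1.50, and without replicate 1 from 1.48 to 2.79. A lot batch, 1, is stated for 11 arrays, and 3 Wistar arrays carry none. Within lot batch 1 (1 against 2 arrays) all 5 genes were higher at day 3, by 0.72 to 1.56, and among arrays with no lot given (1 against 1) by 1.63 to 3.21. With the floor at the 40th percentile the Dnajb9 difference was 0.62.

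After 14 days the Wistar means were again higher than in Wistar controls for 5 of 5 genes, with 3.17-fold for Hyou1 and 2.50-fold for Pdia4. This contrast too was in view when the genes were chosen, and it shares its controls with the day 3 contrast. The log2 difference was 0.78 ± 0.39 for Hspa5, 0.98 ± 0.42 for Hsp90b1, 1.32 ± 0.37 for Pdia4, 0.93 ± 0.37 for Dnajb9 and 1.66 ± 0.49 for Hyou1 (3 against 3 arrays). Only Pdia4 and Hyou1 did not overlap the controls, 2 of 5 genes, where 3.46% of all features were higher without overlap. The median of all features was -0.03, and 0 of 1909 passed (limma, Benjamini-Hochberg), with 99 (5.19%) at an unadjusted p below 0.05.

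The size at day 14 turned on single arrays. Without Wistar day 14 replicate 3 the difference was 1.37 for Hspa5, 1.12 for Hsp90b1, 1.77 for Pdia4, 1.39 for Dnajb9 and 2.27 for Hyou1. Without replicate 1 it was 0.45 for Hspa5 and 0.45 for Hsp90b1. Without the library labelled Wistar control 2 the 5 differences ran from 0.84 to 1.41, and without both that library and replicate 3 from 1.27 to 2.01. Within lot batch 1 (2 against 2 arrays) the 5 genes were higher by 0.91 to 2.41. Among arrays with no lot given, Wistar day 14 replicate 3 minus Wistar control 3 ran from -0.24 for Hspa5 to 1.14 for Hsp90b1.

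Between the days in Wistar rats, the 5 means were lower at day 14 than at day 3, by -1.16 ± 0.46 for Hsp90b1 and by -0.54 to -0.24 for the other 4 genes. The arrays of the groups overlapped for all 5, where 11.5% of all features were higher and 8.54% lower without overlap. Without Wistar day 14 replicate 3 the difference was 0.21 for Hspa5, 0.23 for Dnajb9 and 0.33 for Hyou1, so these 3 changed sign. It was -0.09 for Pdia4 and -1.03 for Hsp90b1 without it. Without Wistar day 3 replicate 2 the Hsp90b1 difference was -0.51, and without replicate 1 of that day -1.80. Leaving out Wistar day 3 replicate 2 also turned the sign of 2 of the 5 genes, which were then higher at day 14 by up to 0.27. The 3 arrays without a lot include 1 of each Wistar group, and within lot batch 1 4 of the 5 genes were higher at day 14.

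In bulk liver, a change in the share of a cell type and a change of RNA per cell cannot be told apart. Marker sums differed along with the Wistar contrasts. The 5 measured stellate cell genes summed to 8730 to 9604 at Wistar day 3 and 5690 to 8273 at day 14, against 4955 to 8313 in controls. The 4 Kupffer cell genes summed to 3340 to 3784 at day 3 and 3176 to 4208 at day 14, against 4416 to 4986 in controls. The 2 pancreatic acinar genes summed to 774 to 794 at day 3 and 618 to 858 at day 14, against 952 to 1442 in controls. Of the plasma cell list only Sdc1 was measured (1 of 8 genes), at 582 to 612 at day 3 and 625 to 696 at day 14, against 536 to 882 in controls. Epcam of the cholangiocyte list was at the floor on all arrays. The 3′ to 5′ signal ratio of Gapdh, a sign of RNA integrity, was 1.16 to 1.35 at day 3 and 1.23 to 2.18 at day 14, against 1.79 to 3.38 in controls. Wistar day 14 replicate 3, with low chaperone signals, had a ratio of 1.23. Whether these shifts have a part in the chaperone differences was not tested.

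**Figure D3:**
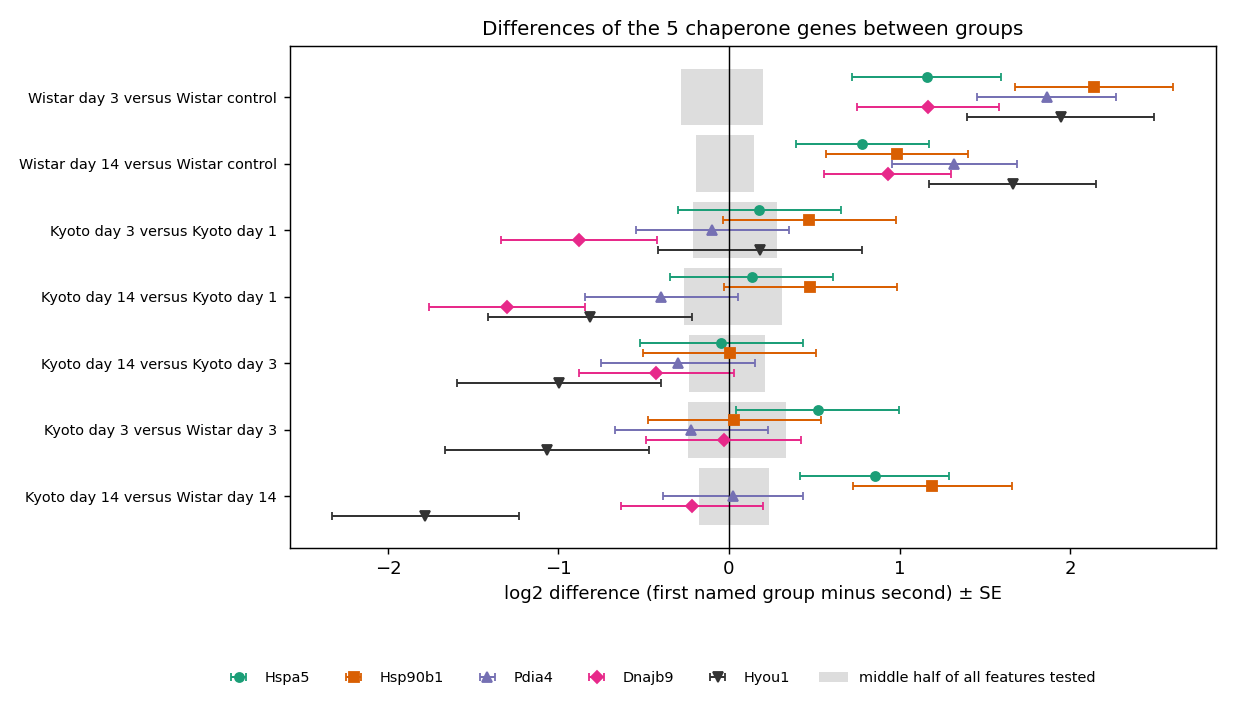
Log2 difference of the 5 genes in 7 comparisons, first named group minus second; points are fitted differences, bars are standard errors, and grey bands are the interquartile range of all features tested. All 5 points lie right of zero in both Wistar comparisons with control, from 0.78 to 2.14, and Hyou1 lies left of zero in both comparisons of Kyoto with Wistar.

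Differences between Kyoto days were not among the values that the genes were selected on, so p-values are given there. Their standard errors rest on a spread estimated over all 14 arrays, the Wistar arrays used in the selection included. For Hspa5 the SD of log2 signal was 0.43, 0.08 and 0.12 at Kyoto days 1, 3 and 14, against 1.02 at Wistar day 14. For Hyou1 it was 0.46, 0.43 and 0.82, against 1.06. None of the 5 genes passed. The fit (limma, Benjamini-Hochberg over 1909 features) called 0 of the 5 in Kyoto day 3 against day 1, day 14 against day 1 and day 14 against day 3. At an unadjusted p below 0.05 these were 0, 1 and 0 genes, where 5.87%, 10.2% and 4.61% of all features lay below it. Past the adjusted threshold were 0%, 0.0524% and 0% of all features.

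Dnajb9 differed most, with a mean 2.47-fold lower at Kyoto day 14 than at Kyoto day 1 (-1.30 ± 0.46 log2, 2 against 2 arrays, adjusted p = 0.354 by limma). The 2 groups did not overlap, as for 18.9% of all features in this direction. At Kyoto day 3 against day 1 the Dnajb9 difference was -0.88 ± 0.46 (adjusted p = 0.782 by limma), again without overlap, as for 12.5% of all features. Without Kyoto day 1 replicate 2, the array with the highest signal, the differences were -0.86 at day 14 and -0.43 at day 3. Without replicate 1 of that group, an array with blank rows in the deposited table, they were -1.75 and -1.33. Beside this, Sdc1 signals were 472 to 495 at Kyoto day 14 and 531 to 573 at day 3, against 783 to 889 at day 1. Stellate cell sums were 8502 to 8593 at Kyoto day 14 and 5929 to 8418 at day 3, against 10326 to 12273 at day 1. The part of either in the Dnajb9 difference was not tested.

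Hyou1 was 1.99-fold lower at Kyoto day 14 than at Kyoto day 3, without overlap (-0.996 ± 0.60 log2, adjusted p = 0.971 by limma). Its size rested on Kyoto day 14 replicate 1: the difference was -0.41 without that array and -1.58 without replicate 2. On the second Hyou1 probe set, U41853_at, the difference was -0.55 and the arrays of the days overlapped. Pdia4 (-0.30 ± 0.45, adjusted p = 0.98) and Dnajb9 (-0.42 ± 0.46, adjusted p = 0.98, limma) were also lower without overlap between these days. With Hyou1 these are 3 of 5 genes on the probe sets in the fit, where 22.9% of all features were lower without overlap. Hspa5 and Hsp90b1 differed by -0.05 ± 0.48 and 0.00 ± 0.51 between days 14 and 3. Against Kyoto day 1, Hspa5 differed by 0.13 ± 0.48 at day 14 and 0.18 ± 0.48 at day 3, and Hsp90b1 by 0.48 ± 0.51 and 0.47 ± 0.51. On S69315_at, the Hsp90b1 probe set in the fit, the arrays of days 3 and 14 lay above those of day 1, as did 15.5% and 19.1% of all features. On S69316_s_at and AA685903_at they all lay between the lower and the higher array of day 1. Adjusted p-values of Hspa5 and Hsp90b1 ran from 0.76 to 1 in these comparisons (limma).

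Between fed Kyoto and fed Wistar livers the 5 genes did not go one way. These values are a description, since the Wistar arrays had a part in the choice of genes. Hyou1 was lower in Kyoto, by -1.07 ± 0.60 log2 at day 3 and by -1.78 ± 0.55 at day 14, where it was 3.44-fold lower. Hspa5 was higher in Kyoto by 0.52 ± 0.48 at day 3 and 0.85 ± 0.44 at day 14, and Hsp90b1 by 0.03 ± 0.51 and 1.19 ± 0.46. Pdia4 differed by -0.22 ± 0.45 and 0.02 ± 0.41, and Dnajb9 by -0.03 ± 0.46 and -0.22 ± 0.42. At day 3 the strains' arrays did not overlap for Hspa5 (higher in Kyoto, as for 28.4% of all features) and Hyou1 (lower in Kyoto, as for 20.9%). At day 14 they did not overlap for 1 of the 5 on the probe sets in the fit, Hspa5, as for 15.1% of all features. On the second Hspa5 probe set, S63521_i_at, the difference was -0.06 at day 3 and 0.88 at day 14. There the strains' arrays overlapped at both days. On the second Hyou1 probe set, U41853_at, the difference was -1.08 at day 3 and -1.30 at day 14. The strains' arrays did not overlap there at either day. At day 14 the highest Kyoto signal was 266 and the lowest Wistar signal 269, and 12.5% of all features were lower without overlap. Without Wistar day 14 replicate 3 the day 14 differences were 0.26 for Hspa5, 1.06 for Hsp90b1, -0.43 for Pdia4, -0.68 for Dnajb9 and -2.39 for Hyou1. The day 3 values turned on single Wistar arrays. Without Wistar day 3 replicate 1 they were 0.16 for Hspa5, -0.61 for Hsp90b1 and -1.61 for Hyou1, and without replicate 2 they were 0.88, 0.68 and -0.52 in that order of genes. Without replicate 2 the Pdia4 and Dnajb9 differences were 0.17 and 0.28. With the lot as a block, Hspa5 differed by 0.25 at day 3.

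Marker sums of other cell types differed between the strains as well. Kupffer cell genes summed to 5280 to 5405 in Kyoto livers at day 3, against 3340 to 3784 in Wistar livers, and at day 14 to 4553 to 4853 against 3176 to 4208. The 2 acinar genes summed to 1233 to 1375 in Kyoto livers at day 3, against 774 to 794 in Wistar livers, and at day 14 to 1088 to 1192 against 618 to 858. The 2 endothelial genes summed to 322 to 336 in Kyoto livers at day 3, against 196 to 269 in Wistar livers. Their part in the strain differences was not tested. Probe binding was not compared between the strains' sequences.

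The other genes of the pathway were taken from lists of known function, and no list was tested against the 5 genes, which were selected on these contrasts. Of 31 further lumen chaperones and folding enzymes, 13 were on the array and 12 were tested. None passed over all features in either direction in any of the 8 comparisons (limma, Benjamini-Hochberg), where at most 0.681% of all features did (Kyoto day 14 versus Wistar day 14). Kyoto day 3 versus Wistar day 3 had 0.21%. At Wistar day 3 against control, 2 of the 12 were higher at an unadjusted p below 0.05, as were 4.5% of all features. At Wistar day 3 10 of the 12 had a higher mean than in controls, with a median difference of 0.32, and at day 14 11 of 12 had, with a median of 0.25. Without the library labelled Wistar control 2 the day 3 median was 0.43, and without Wistar day 14 replicate 3 the day 14 median was 0.44. All features tested had medians of -0.04 and -0.03 at these days, and their share with a higher mean was not counted. Between strains this list's median difference, Kyoto minus Wistar, was 0.33 at day 3 and 0.30 at day 14, against -0.03 and 0.02 for the 5 genes. Ero1b, an oxidase that renews disulfide isomerases, had 577 and 1453 at Wistar day 3 and 892, 809 and 469 at day 14, against 458, 718 and 426 in controls. Lman1, a cargo receptor for export to the Golgi, had 355 and 538 at Wistar day 3 and 304, 147 and 287 at day 14, against 229.8, 209 and 227 in controls. Lman1 was therefore above the controls at day 3 only, as were 14.5% of all features at that day. Ero1b overlapped them at both days, through the library labelled Wistar control 2 (718) alone. How many of all features separate without that library was not counted.

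Of 42 genes of translocation, glycosylation and degradation at the endoplasmic reticulum, 12 were tested and 0 passed in any comparison (limma). Their median difference from controls was 0.20 at Wistar day 3 and 0.05 at day 14, and 0.17 and 0.14 without both libraries that stand apart. Ssr3, a subunit of the translocon-associated protein complex, stood apart from its list. It had 1342 and 2366 at Wistar day 3 and 1345, 1899 and 1319 at day 14, against 679, 853 and 860.3 in controls. It was higher without overlap at either day, as were 14.5% of all features at day 3 and 3.46% at day 14. Ssr3 was named for the largest mean difference of its list in these contrasts, so this is a description. Sec61a1, the pore subunit of the translocon, had 1022 and 1589 at Wistar day 3 and 1234, 500.3 and 1135 at day 14, against 706, 802 and 811 in controls.

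The lists of the sensors and of the PERK and ATF4 branch were thinly covered. Of 12 sensors and transcription factors 2 were on the array and 1 was tested, Eif2s1, the translation factor that PERK phosphorylates, which differed by -0.15 at Wistar day 3 and -0.30 at day 14. Of 26 targets of the PERK and ATF4 branch 12 were on the array and 5 were tested; 4 of the 5 had higher means than controls at either day, with medians of 0.75 and 0.47 (0 past the threshold in any comparison, limma). Without both libraries that stand apart the medians were 0.92 and 0.71. Between strains the medians, Kyoto minus Wistar, were 0.90 at day 3 and 0.67 at day 14. All features tested had median differences from Wistar controls of -0.04 and -0.03, and their share with a higher mean was not counted. Slc3a2, which pairs with light chains to carry amino acids, had 1096 and 1874 at Wistar day 3 and 1564, 1143 and 1129 at day 14, against 603, 875 and 955 in controls. Its fed Wistar arrays therefore all exceeded the controls, Wistar day 14 replicate 3 included. Higher without overlap were 14.5% of all features at day 3 and 3.46% at day 14. Slc3a2 was named for the largest mean difference of its list in these contrasts. Nupr1, a stress-induced nuclear protein, had 278 and 719 at Wistar day 3 and 678, 407 and 225 at day 14, against 275, 399 and 171 in controls. It overlapped the controls at both days, at day 3 only through the library labelled Wistar control 2 (399).

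Heat shock proteins of the cytosol and mitochondria had medians near or below zero. Of 26 listed, 14 were tested and 0 passed in any comparison (limma). Of these 14, 10 had lower means at Wistar day 3 than in controls and 12 at day 14, with medians of -0.09 and -0.24, and -0.07 at either day without both libraries that stand apart. All features tested had medians of -0.04 and -0.03 at these days, and their share with a lower mean was not counted. Hsph1, a cytosolic nucleotide exchange factor related in structure to Hyou1, had 334 and 243 at Wistar day 3 and 208, 225 and 358 at day 14, against 383, 429.9 and 405 in controls. All 5 fed Wistar arrays lay below the controls. Hsph1 was named for the largest mean difference of its list in these contrasts, so this is a description. The share of all features lower without overlap is not given here. Hspb1, a small heat shock protein, had 302 and 188 at Wistar day 3 and 313, 289.8 and 429.9 at day 14, against 351, 719 and 288 in controls. The 719 is that of the library labelled Wistar control 2, which entered the choice of Hspb1 as a named gene. Kyoto arrays had 589 to 828.

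**Figure D4:**
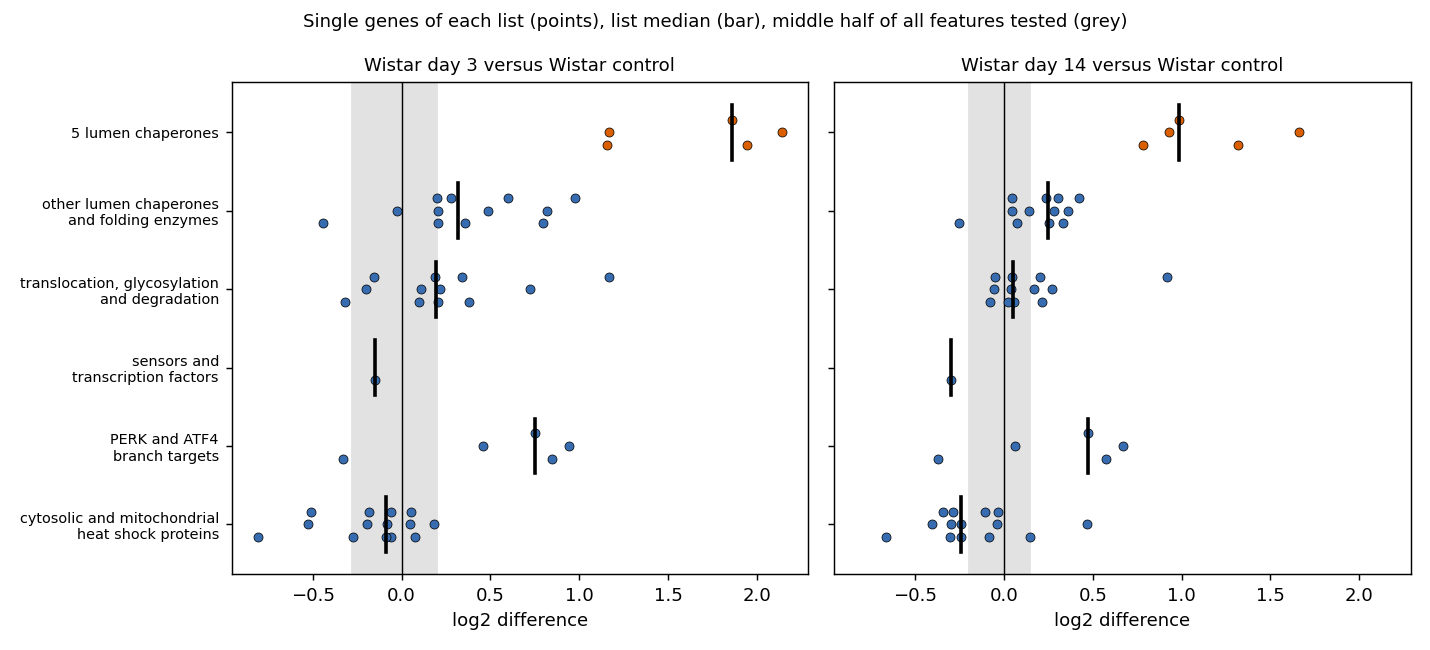
Log2 difference of single genes (points) in Wistar livers at day 3 and day 14 of feeding against control, by list, with the list median as a bar and the interquartile range of all features tested in grey. The 5 lumen chaperones have medians of 1.86 and 0.98, the further lumen chaperones 0.32 and 0.25, and the cytosolic and mitochondrial heat shock proteins -0.09 and -0.24.

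The patterns most like the mean of the 5 genes were sought among 1497 other tested features with 1 symbol, by Pearson's r over the 14 arrays. This is a description, since arrays of a group share their feeding and strain. Only 4 features had an r above 0.8. They were Hdlbp, an RNA-binding protein (r = 0.89), Ddx50, an RNA helicase (0.839), P4hb, the main disulfide isomerase of the lumen (0.836), and Rpn1, a subunit of the oligosaccharyltransferase (0.836). Next came Slc35b1, a nucleotide transporter of the reticulum membrane (0.784). Over the 12 arrays without the library labelled Wistar control 2 and Wistar day 14 replicate 3, 4 of these 5 were again among the top 5, and 2 had an r above 0.8, Hdlbp (0.851) and Rpn1 (0.812). P4hb then had 0.757. The range of P4hb was narrow: 7483 to 8389 on Kyoto arrays, 5997 and 8066 at Wistar day 3 and 8292, 7483 and 5669.9 at day 14, against 5853, 4886 and 6551 in controls. Hdlbp had 2412 and 3371 at Wistar day 3 and 2733, 1973 and 1437 at day 14, against 1371, 1626 and 1749 in controls. Its 6 Kyoto arrays, at 2602 to 3428, all lay above the controls, and the share of all features for which this holds was not counted.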

How the data were processed

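The authors deposited 1 table of MAS5 signals (so named in the submitters' processing notes), which are linear intensity values per probe set. MAS5's version and scaling target: not given in the sources used here. Of 4502 rows 24 are controls, and rows blank on any array were left out. Log2 signals were quantile normalized, set to a floor at the 25th percentile (115) and reduced to the highest-mean probe set per gene (3181 features). The upper 60% by mean (1909) were tested. One limma 3.58.1 model (R 4.3.3) with a mean for each of 6 groups and 8 residual degrees of freedom gave 8 comparisons, with eBayes, an intensity trend and Benjamini-Hochberg adjustment over all features. It was tested on simulated data. Alternatives changed scaling, floor, filter, probe set rule, blocks, weights and arrays.

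The members and lists were chosen with earlier results of these data known. Named were the members, list genes past the threshold, the 2 genes per list with the largest mean difference over both Wistar comparisons with control, and the 5 features most like the members. Nothing says that arrays are separate animals, so p-values measure the spread between these samples. Symbols come from the platform annotation, and the number of arrays limits the precision.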

Additional observations from a re-analysis of the deposited data

How the results depend on the processing

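No paired analysis was possible because the labels number no replicates within a group and match no array of 1 group to an array of another, though arrays of several groups share a lot or blank rows. Over 28 alternatives, 1099 of 1112 member values stayed within 1 SD of the reported one, 13 moved further and 44 took the other sign. Many of these values could not move. Leaving out an array of a group not compared, or changing the filter or the trend, keeps a difference of group means as it was. The share within 1 SD is therefore no measure of stability. Of 1120 list medians 54 moved by more than 1 SD. In comparisons between Kyoto days none of the 5 genes passed under any alternative (limma). In the other comparisons the members were selected on the arrays compared, so no call of a member is given. With single arrays left out, the mean log2 difference of the 5 genes ran from 1.20 to 2.11 in Wistar day 3 versus Wistar control, 0.78 to 1.58 in Wistar day 14 versus Wistar control, -0.97 to -0.07 in Wistar day 14 versus Wistar day 3, -0.39 to 0.33 in Kyoto day 3 versus Kyoto day 1, -0.74 to -0.02 in Kyoto day 14 versus Kyoto day 1, -0.50 to -0.20 in Kyoto day 14 versus Kyoto day 3, -0.60 to 0.30 in Kyoto day 3 versus Wistar day 3, and -0.43 to 0.37 in Kyoto day 14 versus Wistar day 14.

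Counts of all features past the adjusted threshold were less stable, and the cause was not tested. With single arrays left out they ran from 0 to 74 in Kyoto day 3 versus Kyoto day 1 and from 0 to 160 in Kyoto day 14 versus Kyoto day 1 (both highest without Kyoto day 1 replicate 2), and from 0 to 1 in Kyoto day 14 versus Kyoto day 3. They ran from 0 to 6 in Wistar day 3 versus Wistar control and from 0 to 7 in Wistar day 14 versus Wistar control (both highest without Wistar day 14 replicate 3), and were 0 throughout in Wistar day 14 versus Wistar day 3. They ran from 0 to 33 in Kyoto day 3 versus Wistar day 3 and from 0 to 34 in Kyoto day 14 versus Wistar day 14 (both highest without Wistar control 2).

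Kyoto day 3 versus Kyoto day 1 had 2 calls with all features tested (reported 0). Kyoto day 14 versus Kyoto day 1 (reported 1) had 3 with all features tested, 4 with every probe set a feature, and 0 with only the groups compared or with array weights. Kyoto day 14 versus Kyoto day 3 had 1 with all features tested and 1 with array weights (reported 0). Wistar day 3 versus Wistar control (reported 0) had 1 with every probe set a feature, 5 with only the groups compared, 18 with array weights, and 5 without both Wistar control 2 and Wistar day 14 replicate 3. Wistar day 14 versus Wistar control (reported 0) had 1 with array weights and 5 without both. Kyoto day 3 versus Wistar day 3 (reported 4) had 2 without a floor, with every probe set a feature or with the 3 arrays that have blank rows as a block, 1 with the floor at the 40th percentile, all features tested, the upper 40% tested or the lot as a block, 45 with only the groups compared or with array weights, and 34 without both arrays. Kyoto day 14 versus Wistar day 14 (reported 13) had 4 with cyclic loess, 5 without a floor or without a trend, 6 with the upper 40% tested or every probe set a feature, 0 with all features tested or the lot as a block, 2 with the blank-row block, 27 with only the groups compared or without both arrays, and 32 with array weights. Leaving out both arrays together and the blank-row block were chosen after seeing the data.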
